A study of Arabidopsis thaliana with 12 samples.

Results

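The aldehyde dehydrogenase genes ALDH6B2 (AT2G14170), ALDH7B4 (AT1G54100) and ALDH10A9 (AT3G48170) were followed in leaves of Arabidopsis thaliana across submergence and across the genotypes atg5 and col. They were taken by gene symbol from the probe sets that the platform annotation pairs with 1 gene. Each of the 3 genes has 1 such probe set, and together they are 3 of 13356 genes tested. All 3 lay well above the lowest value of the table, a log2 signal of 2.204, on all 12 arrays.

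Aldehyde dehydrogenases oxidise reactive aldehydes to acids with NAD or NADP as electron acceptor. ALDH6B2 is the methylmalonate semialdehyde dehydrogenase family member, an enzyme late in the breakdown of valine. ALDH7B4 belongs to the antiquitin family, whose human member acts in lysine breakdown, and the plant genes of this family are known as stress-inducible. ALDH10A9 belongs to the betaine aldehyde dehydrogenase family, whose members oxidise aminoaldehydes formed from polyamines. During submergence plants have little oxygen and light and use protein and amino acids as fuel, while autophagy delivers cell contents to the vacuole for breakdown.

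The 4 groups were atg5 after 48 h of submergence, col after 48 h of submergence, atg5 control and col control, with 3 biological replicates and 1 array per replicate. The atg5 plants lack a protein needed to form autophagosomes; the labels give neither the allele nor the number of lines, and col is described as Col-0. Plants of both genotypes were 28 days old, raised with a day and a night of 12 h each. Whole plants were put under 10 cm of water with the light cycle kept, and control plants were taken at 0 h. No group was kept out of water for 48 h, so submergence and the time passed cannot be told apart. The labels do not say whether plants were pooled for a replicate, so the p-values measure the spread between these samples. ATG5 itself has no probe set named here and its level was not analysed here.

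The values are log2 signals of single-channel arrays. Within a group, arrays had a Pearson's r of 0.985 to 0.996 with each other, and submerged with control arrays had 0.799 to 0.875. Array medians were lower on the 6 submerged arrays (4.26) than on the 6 control arrays (4.48), and the poly-A RNA spikes were higher (5.70 against 5.20, exact permutation test, two-sided p = 0.00216 for each). The hybridization controls averaged 9.08 on submerged and 9.23 on control arrays (exact permutation test, two-sided p = 0.0281), and the part of these shifts in the results below was not tested. The summed linear signal of 4 measured leaf mesophyll markers of 11 listed (RCA, LHCB4.1, LHCB4.2 and SBPASE) was 25370 to 27310 in atg5 at 48 h and 12950 to 25780 in col at 48 h. In controls it was 59450 to 62000 in atg5 and 59120 to 62190 in col. Of 3 measured root markers of 4 listed, 2, among them PYK10, were at the lowest value on all submerged arrays. The summed root signal, carried by AT5G26280, was 179.7 to 249.7 in atg5 at 48 h and 416.0 to 586.2 in col at 48 h, against 13.92 to 18.01 in atg5 control and 13.93 to 16.83 in col control. For 2 measured guard cell markers of 4 listed the sum was 60.9 to 109.5 in atg5 at 48 h and 64.6 to 338.2 in col at 48 h, against 280.1 to 417.0 in atg5 control and 485.7 to 634.4 in col control. The single measured phloem marker of 4 listed, SWEET11, had 3654 to 5754 in atg5 at 48 h and 4062 to 6399 in col at 48 h, against 4791 to 6241 in atg5 control and 2426 to 3380 in col control. The part of cell types in the results was not tested, and in whole leaves fewer cells of a type and less RNA per cell cannot be told apart.

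ALDH6B2 rose strongly under water in both genotypes. Its log2 signal was 12.41, 11.96 and 12.42 in atg5 at 48 h, against 9.66, 9.50 and 9.36 in atg5 control. In col it was 12.37, 12.58 and 12.46 at 48 h, against 9.21, 9.74 and 9.37 in control. Every submerged array thus lay above every control array, with a gap of more than 2 log2 units. The difference between 48 h and control was 2.75 ± 0.17 in atg5, a 6.74-fold change (95% interval 5.17 to 8.79, adjusted p = 2.11e-06). In col it was 3.03 ± 0.17, an 8.18-fold change (95% interval 6.28 to 10.7, adjusted p = 1.07e-06). Errors of differences are standard errors from limma's linear model, and p-values are adjusted over all genes by Benjamini-Hochberg with a threshold of 0.05. Under water 40.3% of all genes were called in atg5 (19.1% higher) and 42.5% in col (20.4% higher), so a call alone is common here. The groups did not overlap, with 48 h higher, for 23.0% of all genes in atg5 and for 22.0% in col. By size of rise ALDH6B2 ranked 523 of 13356 in atg5 and 486 in col.

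**Figure D1:**
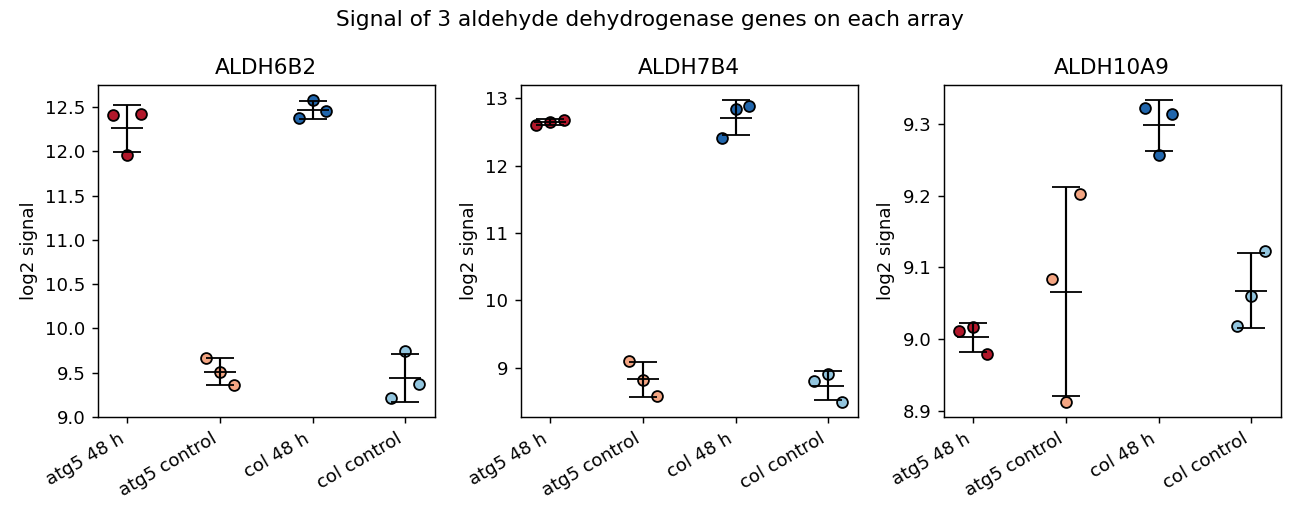
Log2 signal of ALDH6B2, ALDH7B4 and ALDH10A9 on each of the 12 arrays, by group; the horizontal bar is the group mean and the whiskers are ± 1 SD (n = 3), and each panel has its own axis. ALDH6B2 and ALDH7B4 lie between 11.96 and 12.89 at 48 h and between 8.49 and 9.74 in control, while ALDH10A9 stays between 8.91 and 9.32 in all groups.

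The genotypes did not separate for ALDH6B2. Group means in order were 12.47 ± 0.10 in col at 48 h, 12.26 ± 0.26 in atg5 at 48 h, 9.51 ± 0.15 in atg5 control and 9.44 ± 0.27 in col control (SD, n = 3 each). Neighbours of the same treatment overlapped, and the gap lay between the treatments. The difference of atg5 minus col was -0.21 ± 0.17 at 48 h (95% interval -0.59 to 0.17, adjusted p = 0.655) and 0.07 ± 0.17 in control (95% interval -0.31 to 0.45, adjusted p = 1.0). The interaction, the atg5 response minus the col response, was -0.28 ± 0.24 (95% interval -0.82 to 0.26, adjusted p = 0.759). A difference in response of up to 0.82 log2 units is thus within the interval.

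Genes of branched-chain amino acid breakdown moved mostly in the same direction as ALDH6B2. Of 19 listed loci, 11 were measured. In atg5, 8 rose and 2 fell, with a median difference of 1.12, and in col 8 rose and 1 fell, with a median of 1.39. Over all genes, rises were called for 19.1% and falls for 21.2% in atg5, against 20.4% and 22.1% in col. The median over all genes tested was 0.00 in both comparisons. IVD (AT3G45300), isovaleryl-CoA dehydrogenase of leucine breakdown, rose by 4.86 ± 0.24 in atg5 and by 4.88 ± 0.24 in col. MCCA (AT1G03090), a subunit of methylcrotonyl-CoA carboxylase, the next step for leucine, rose by 4.61 ± 0.16 in atg5 and by 4.66 ± 0.16 in col. The other subunit, MCCB (AT4G34030), rose by 1.25 ± 0.20 in atg5 and by 1.86 ± 0.20 in col. ETFQO (AT2G43400) passes electrons from such dehydrogenases to ubiquinone in mitochondria. It rose by 1.96 ± 0.18 in atg5 and by 1.99 ± 0.18 in col. Of these, IVD, MCCA and MCCB act in leucine breakdown, while ALDH6B2 acts in valine breakdown. AT4G20930, 3-hydroxyisobutyrate dehydrogenase of the valine step before ALDH6B2, rose by 0.97 ± 0.17 in atg5 and by 0.57 ± 0.17 in col. It was named after its values were seen.

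The 2 loci that fell in atg5 were AT4G31810, which also fell in col, and AT5G09300; they are named after their values were seen. AT4G31810, a 3-hydroxyisobutyryl-CoA hydrolase-like locus of valine breakdown, fell by 1.02 ± 0.28 in atg5 and fell by 1.65 ± 0.28 in col. AT5G09300 fell by 1.06 ± 0.37 in atg5 (adjusted p = 0.0461) and differed by -0.71 ± 0.37 in col (adjusted p = 0.173). Both loci were dim. The log2 signal of AT4G31810 was 2.54 to 3.23 in atg5 at 48 h, against 3.54 to 4.55 in atg5 control. In col it was 2.88 to 3.08 at 48 h, against 4.43 to 4.95 in control. AT5G09300 had 2.89 to 3.06 in atg5 at 48 h, against 3.12 to 4.72 in atg5 control. The submerged levels lay near the lowest value of the table, 2.204, which limits the size of a fall. The count of falls in atg5 was 1 or 0 under 14 of 24 alternatives, among them both other scalings and the omission of any 1 array except replicate 1 of atg5 control or of col control. None of the 11 passed in atg5 minus col in control, in atg5 minus col at 48 h or in the interaction, where limma called 2.34%, 3.42% and 0.599% of all genes. At an unadjusted p under 0.05 there were 3, 1 and 1 of the 11, against 13.8%, 15.4% and 11.5% of all genes.

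ALDH7B4 had the largest response of the 3 genes. Its log2 signal was 12.60, 12.65 and 12.68 in atg5 at 48 h, against 9.09, 8.82 and 8.57 in atg5 control. In col it was 12.41, 12.84 and 12.89 at 48 h, against 8.80, 8.90 and 8.49 in control. No submerged array came near a control array in either genotype. The gene rose by 3.81 ± 0.17 in atg5, 14.1-fold (95% interval 10.7 to 18.4, adjusted p = 4.24e-07), and by 3.98 ± 0.17 in col, 15.8-fold (95% interval 12.1 to 20.7, adjusted p = 2.95e-07). It ranked 293 of 13356 by size of rise in atg5 and 304 in col.

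**Figure D2:**
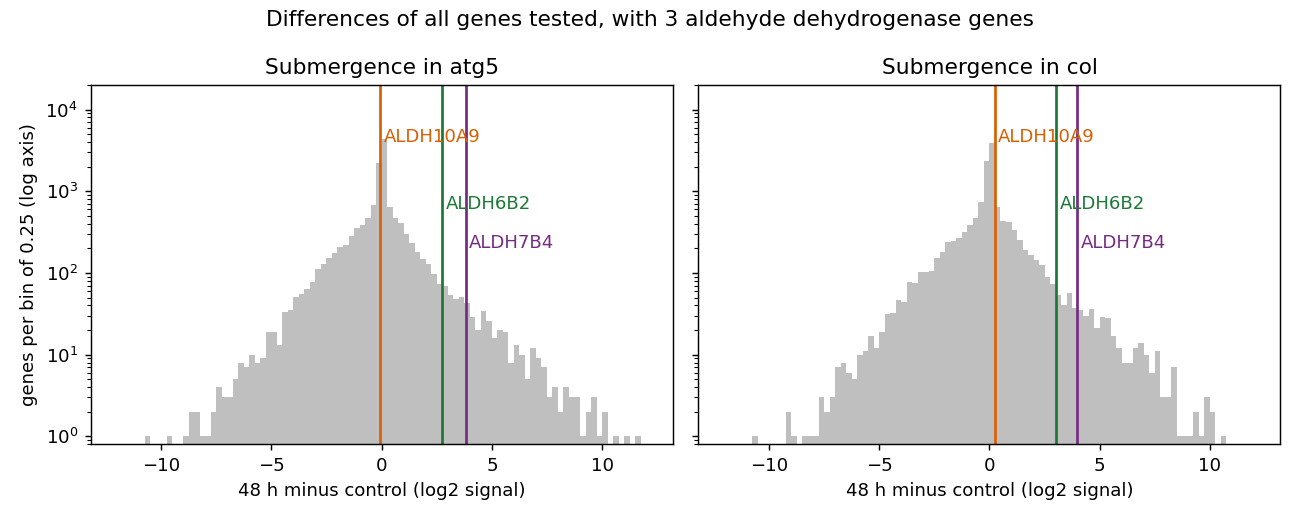
Number of genes (log axis) per bin of 0.25 in the difference of 48 h minus control (log2 signal), for 13356 genes in atg5 (left) and col (right), with the 3 aldehyde dehydrogenase genes as vertical lines. ALDH6B2 (2.75 in atg5 and 3.03 in col) and ALDH7B4 (3.81 in atg5 and 3.98 in col) lie in the right tail, and ALDH10A9 (-0.06 in atg5 and 0.23 in col) lies near the centre.

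The order of the ALDH7B4 means was 12.71 ± 0.26 in col at 48 h, 12.64 ± 0.043 in atg5 at 48 h, 8.83 ± 0.26 in atg5 control and 8.73 ± 0.22 in col control (SD, n = 3 each). As for ALDH6B2, the groups of the same treatment overlapped. The difference of atg5 minus col was -0.07 ± 0.17 at 48 h (95% interval -0.46 to 0.32, adjusted p = 1.0). In control it was 0.10 ± 0.17 (95% interval -0.29 to 0.49, adjusted p = 1.0). The interaction was -0.17 ± 0.24 (95% interval -0.72 to 0.38, adjusted p = 0.84).

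Of 4 listed loci of lysine and pipecolate metabolism 2 were measured, and both rose in each genotype. Rises were called for 19.1% of all genes in atg5 and for 20.4% in col. AT4G33150 encodes LKR/SDH, the bifunctional enzyme that starts lysine breakdown and yields the semialdehyde on which the antiquitin family acts. Its log2 signal was 11.26 to 11.46 in atg5 at 48 h, against 4.56 to 5.24 in atg5 control, and 10.47 to 11.61 in col at 48 h, against 4.55 to 5.25 in col control. It rose by 6.33 ± 0.31 in atg5 and by 6.23 ± 0.31 in col. AT5G52810 rose by 3.66 ± 0.30 in atg5 and by 2.91 ± 0.30 in col. Its difference of atg5 minus col at 48 h was 0.91 ± 0.30 (adjusted p = 0.165). Neither locus passed between genotypes in control, at 48 h or in the interaction, where limma called 2.34%, 3.42% and 0.599% of all genes. At an unadjusted p under 0.05 AT5G52810 at 48 h was the single one, against 13.8%, 15.4% and 11.5% of all genes.

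ALDH10A9 behaved unlike the other 2 genes in size: the means of its 4 groups lay between 9.00 and 9.30. Its log2 signal was 9.01, 9.02 and 8.98 in atg5 at 48 h and 9.32, 9.26 and 9.31 in col at 48 h. The controls had 9.08, 8.91 and 9.20 in atg5 and 9.02, 9.06 and 9.12 in col. The 3 submerged col arrays were the highest of all 12, and the 3 submerged atg5 arrays lay within the range of the atg5 controls. The gene rose in col by 0.23 ± 0.0635, a 1.17-fold change (95% interval 1.06 to 1.30, adjusted p = 0.0162). In atg5 the difference was -0.06 ± 0.0635 (95% interval -0.21 to 0.0817, adjusted p = 0.547).

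The col rise was of the size of the shift between array medians, and it depended on the scaling. With each array centred on its median it was 0.42 (adjusted p = 0.00125), and with quantile normalization 0.13 (adjusted p = 0.187). In atg5 centring turned the difference to 0.20 (adjusted p = 0.0485), so the direction of ALDH10A9 in atg5 was not settled. The col call also ended without col 48 h replicate 1 (adjusted p = 0.0518) and without col control replicate 1 (adjusted p = 0.0579). Without atg5 control replicate 2 the atg5 difference of -0.14 was called (adjusted p = 0.0329), and the interaction of -0.37 was called too (adjusted p = 0.0441).

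Under water ALDH10A9 was lower in atg5 than in col. The mean was 9.00 ± 0.0203 in atg5 at 48 h and 9.30 ± 0.0354 in col at 48 h (SD, n = 3 each), and the groups did not overlap. The difference was -0.30 ± 0.0635, a ratio of 0.815 (95% interval 0.737 to 0.901, adjusted p = 0.0451). Groups did not overlap in this direction for 7.59% of all genes, and 1.58% were called lower. The call stood close to the threshold. It ended when any 1 of 10 of the 12 arrays was left out, with adjusted p between 0.0636 and 0.136, and remained without atg5 control replicate 2 or 3. It also ended under 7 of 12 other settings, among them the replicate block (adjusted p = 0.0732), array weights (adjusted p = 0.088), median centring (adjusted p = 0.0859) and the 6 submerged arrays alone (adjusted p = 0.0648). The difference itself lay between -0.32 and -0.28 under every alternative run.

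**Figure D3:**
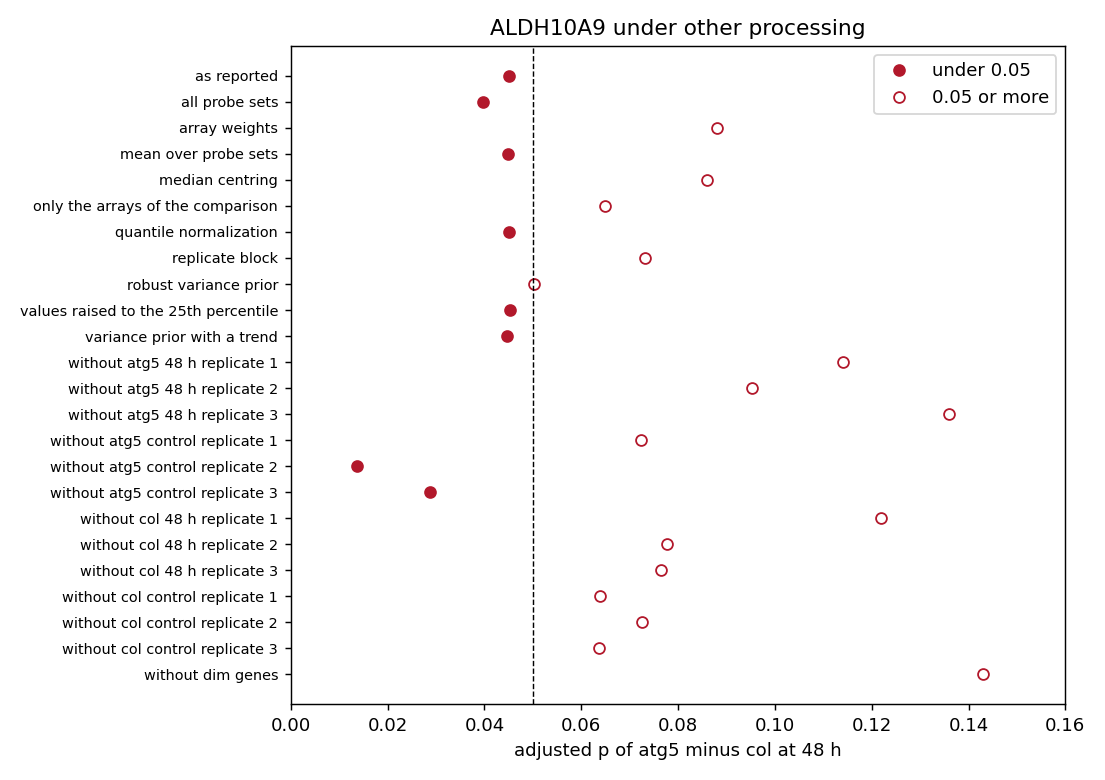
Adjusted p of ALDH10A9 in atg5 minus col at 48 h, as reported (top) and under other processing settings, including each array left out in turn; filled points are under the dashed threshold of 0.05. The value as reported is 0.0451, and the others range from 0.0136 to 0.143.

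In control the ALDH10A9 means were 9.07 ± 0.15 in atg5 and 9.07 ± 0.0524 in col (SD, n = 3 each), with a difference of 0.00 ± 0.0635 (95% interval -0.15 to 0.14, adjusted p = 1.0). In order of level, col at 48 h stood first, followed by col control, atg5 control and atg5 at 48 h. The atg5 control group overlapped with col control and with atg5 at 48 h. Between col control (lowest 9.019) and atg5 at 48 h (highest 9.017) there was no overlap. The interaction was -0.29 ± 0.0898 (95% interval -0.50 to -0.0886). Its unadjusted p, from limma, was under 0.05, as for 11.5% of all genes, and it did not pass after adjustment (adjusted p = 0.216).

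Measured genes of the list for polyamine and GABA metabolism, made around ALDH10A9, went in both directions. Of 25 listed loci 7 were measured, all copper amine oxidases or S-adenosylmethionine decarboxylases, and no locus of GABA metabolism was among them. AT1G31670, 1 of the 7, was at the lowest value of the table throughout within 0.05. In atg5 3 rose and 2 fell, and in col 4 rose and 2 fell. Over all genes 19.1% rose and 21.2% fell in atg5, and 20.4% rose and 22.1% fell in col. Without AT1G31670 the median difference was 0.34 in atg5 and 0.78 in col (0.00 and 0.58 with it). CuAO1 (AT1G62810), a copper amine oxidase, of the enzymes that turn amines into aldehydes, rose by 2.93 ± 0.27 in atg5 and by 3.53 ± 0.27 in col. SAMDC (AT3G02470), S-adenosylmethionine decarboxylase of spermidine and spermine synthesis, rose by 1.54 ± 0.11 in atg5 and by 1.53 ± 0.11 in col. AT1G31710, another copper amine oxidase, fell to a log2 signal of 2.23 to 2.61 in atg5 at 48 h, against 6.20 to 6.45 in control. In col it fell to 2.43 to 3.49 at 48 h, against 7.00 to 7.66 in control. The submerged atg5 arrays lay at or close to the lowest value of the table, so the size of the fall, fitted as -3.86 in atg5 and -4.32 in col, is limited by it. The locus has a second probe set at the lowest value, and the mean over both gives -1.93 in atg5 and -2.16 in col. AT5G15950, another S-adenosylmethionine decarboxylase, fell by 2.76 ± 0.18 in atg5 and fell by 2.69 ± 0.18 in col. None of the 7 passed in control, at 48 h or in the interaction between genotypes, where limma called 2.34%, 3.42% and 0.599% of all genes. At an unadjusted p under 0.05 there were 4, 1 and 1 of the 7, against 13.8%, 15.4% and 11.5% of all genes.

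**Figure D4:**
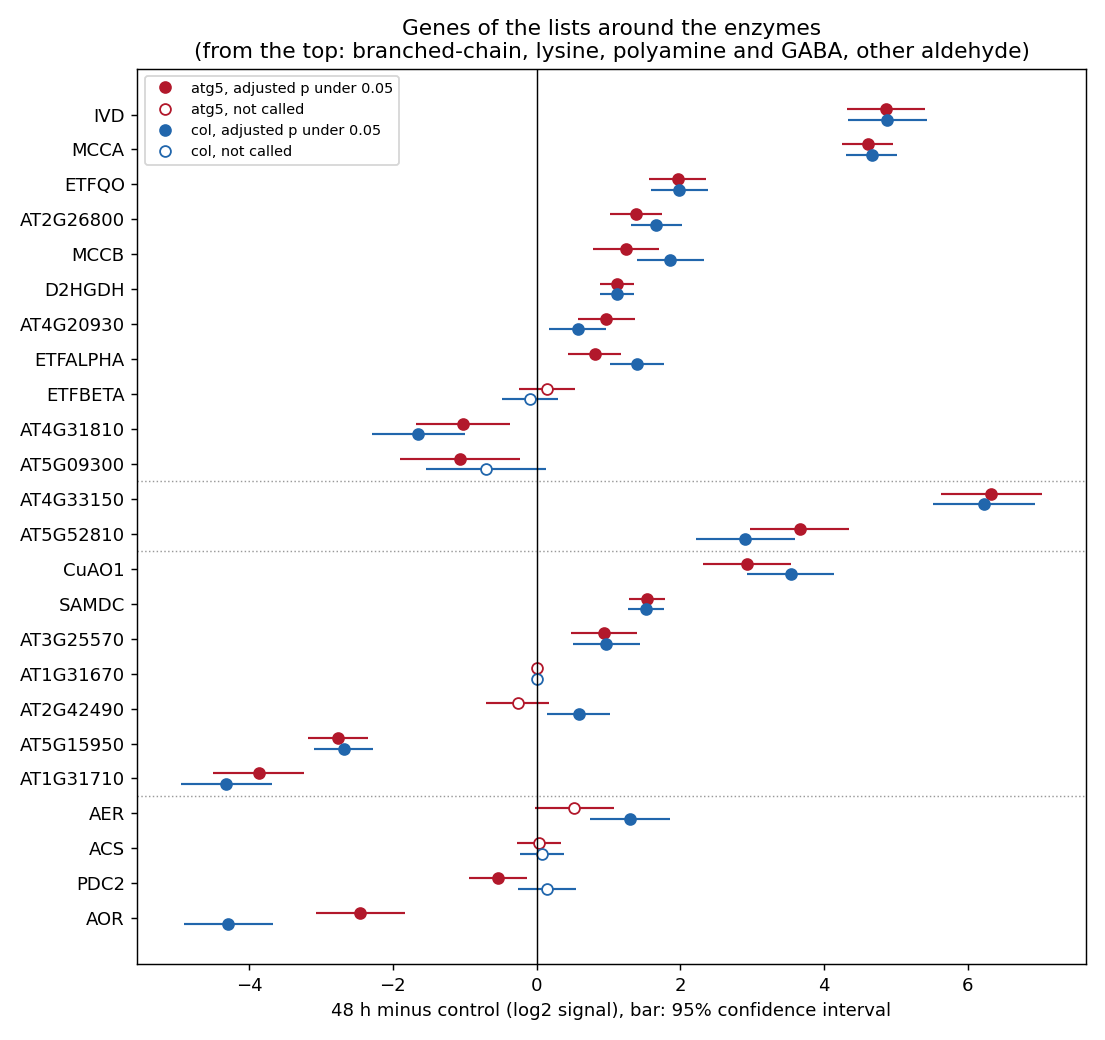
Difference of 48 h minus control (log2 signal) for the measured genes of 4 lists, in atg5 (red, upper of each pair) and col (blue, lower), with 95% confidence intervals; filled points passed at an adjusted p of 0.05. From the top the blocks are branched-chain amino acid breakdown, lysine and pipecolate metabolism, polyamine and GABA metabolism, and other aldehyde and fermentation enzymes. No GABA locus was measured, and the 2 loci of the lysine block lie at 2.91 or above in both genotypes.

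Among the rest of the family no gene was called higher. Of 16 family members listed, 8 were measured, and 5 of these are outside the 3 genes. By limma none of the 5 rose in either genotype, also at an unadjusted p under 0.05, and 2 fell in both, with a median difference of -0.41 in atg5 and -0.59 in col. Over all genes 19.1% rose and 21.2% fell in atg5, and 20.4% rose and 22.1% fell in col. With 5 genes the counts are too small to be set apart from these shares. ALDH3F1 (AT4G36250), of the family 3 enzymes that act on fatty and other aldehydes, had a log2 signal of 3.46 to 4.19 in atg5 at 48 h, against 9.08 to 9.22 in atg5 control. In col it was 2.29 to 5.83 at 48 h, against 9.49 to 9.62 in control, so the submerged col arrays spread widely. It fell by 5.24 ± 0.74 in atg5 (adjusted p = 0.000353) and fell by 5.29 ± 0.74 in col (adjusted p = 0.000306). The col difference was -4.29 without col 48 h replicate 2, which lay close to the lowest value of the table, and -6.06 without col 48 h replicate 3. ALDH22A1 (AT3G66658) fell by 1.28 ± 0.16 in atg5 (adjusted p = 0.000195) and fell by 1.04 ± 0.16 in col (adjusted p = 0.000668).

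The remaining 3 did not pass. ALDH10A8 (AT1G74920), the other member of the betaine aldehyde dehydrogenase family, averaged 9.68 ± 0.20 in atg5 at 48 h and 10.10 ± 0.0762 in atg5 control. In col it averaged 9.52 ± 0.50 at 48 h and 10.00 ± 0.20 in control (SD, n = 3 each). Its differences were -0.41 ± 0.23 in atg5 (adjusted p = 0.218) and -0.49 ± 0.23 in col (adjusted p = 0.131). ALDH11A3 (AT2G24270), a non-phosphorylating glyceraldehyde-3-phosphate dehydrogenase, differed by -0.39 ± 0.23 in atg5 (adjusted p = 0.256) and by -0.59 ± 0.23 in col (adjusted p = 0.0699). ALDH2C4 (AT3G24503), which makes ferulic and sinapic acid from their aldehydes, differed by 0.01 ± 0.19 in atg5 and by -0.34 ± 0.19 in col. Without col 48 h replicate 3 all 5 genes were called lower in col. That was 1 of 24 alternatives, and under the other 23 the count of falls stayed near the reported 2. With any 1 array left out, 5280 to 5614 of all genes were called in col, against 5678 as reported. None of the 5 passed in control, at 48 h or in the interaction between genotypes, where limma called 2.34%, 3.42% and 0.599% of all genes. ALDH22A1 at 48 h was the single case with an unadjusted p under 0.05, against 13.8%, 15.4% and 11.5% of all genes.

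**Figure D5:**
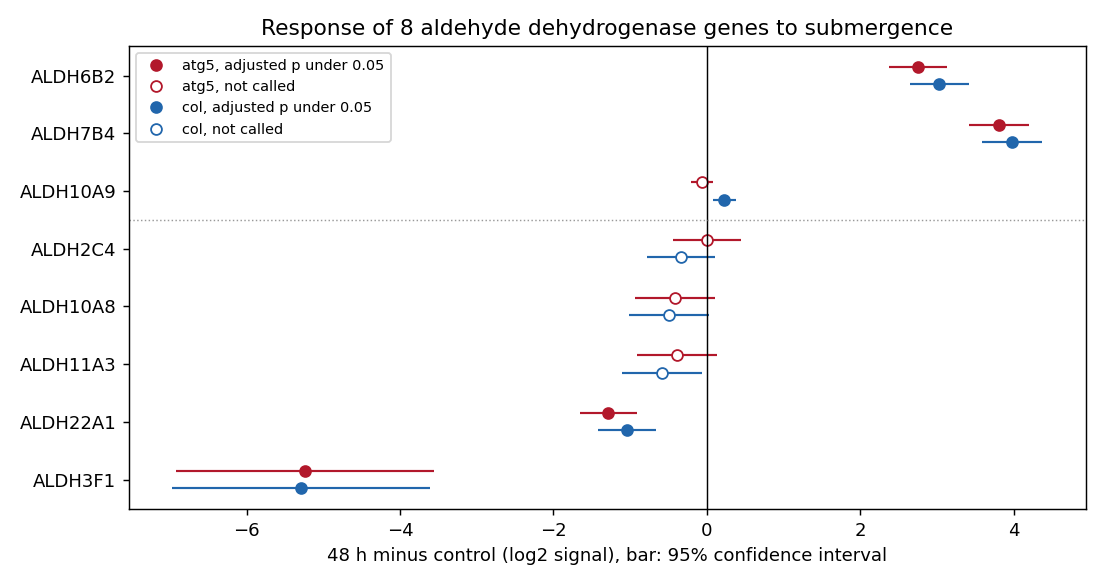
Difference of 48 h minus control (log2 signal) for the 8 measured aldehyde dehydrogenase genes, in atg5 (red, upper of each pair) and col (blue, lower), with 95% confidence intervals; filled points passed at an adjusted p of 0.05. ALDH6B2 and ALDH7B4 lie between 2.75 and 3.98, and ALDH3F1 lies at -5.24 in atg5 and -5.29 in col.

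Of 11 listed loci for other aldehyde and fermentation enzymes 4 were measured. They were AER, AOR, PDC2 and ACS (AT5G36880), and neither PDC1 (AT4G33070) nor ADH1 (AT1G77120) of the list was among them. In atg5 none of the 4 rose by limma, also at an unadjusted p under 0.05, and 2 fell. In col 1 rose and 1 fell. Over all genes 19.1% rose and 21.2% fell in atg5, and 20.4% rose and 22.1% fell in col. With 4 genes these counts are too small to be set apart from the shares over all genes. Median centring gave 2 rises and 1 fall in atg5, and 3 rises and 1 fall in col. Of the 13356 genes tested it called 7809 higher and 2509 lower in atg5, and 6519 higher and 2676 lower in col. AOR (AT1G23740), an oxidoreductase of reactive alkenals and alkenones, fell by 2.45 ± 0.27 in atg5 and fell by 4.29 ± 0.27 in col. It was the single gene of the list called between genotypes, higher by 1.82 ± 0.27 in atg5 than in col at 48 h (adjusted p = 0.0144), where 1.84% of all genes were called higher. AER (AT5G16970), an alkenal reductase, rose by 1.30 ± 0.24 in col (adjusted p = 0.00189) and differed by 0.53 ± 0.24 in atg5 (adjusted p = 0.131); the difference between these responses was -0.77 ± 0.34 (adjusted p = 0.444). PDC2 (AT5G54960), a pyruvate decarboxylase, whose product is acetaldehyde, fell by 0.54 ± 0.18 in atg5 (adjusted p = 0.0393) and differed by 0.15 ± 0.18 in col (adjusted p = 0.617); the difference between these responses was -0.68 ± 0.25 (adjusted p = 0.314). The PDC2 call did not hold for 9 of 23 alternatives (highest adjusted p 0.138), which were median centring (-0.28), the replicate block, the 6 atg5 arrays alone and the omission of atg5 48 h replicate 1 or 3, atg5 control replicate 1 or 3, col 48 h replicate 1, or col control replicate 3.

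Across the 12 arrays the log2 signals of ALDH6B2 and ALDH7B4 had a Pearson's r of 0.993 (Spearman's rho 0.937). That value reflects the gap between treatments that both genes share, and with each group's mean removed r was 0.47. ALDH10A9 had an r of 0.35 with ALDH6B2 and 0.31 with ALDH7B4, and with group means removed these were -0.19 and -0.42. These are descriptions over arrays that share treatment and scaling.

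The genes whose profile over the 12 arrays was most like that of ALDH6B2 by Pearson's r were SBT3.5 (AT1G32940, r = 0.996), AT1G78780, AT4G32950, AT1G63530 and AT1G65690 (AT1G65690 with r = 0.995). For ALDH7B4 they were AT5G44380 (r = 0.997), AT4G36640, PUB22 (AT3G52450), AT1G51890 and AT5G38710 (AT5G38710 with r = 0.996). Such likeness was common, since 1057 genes had an r over 0.95 with ALDH6B2 and 1076 with ALDH7B4, and the sizes of change differed. SBT3.5 rose by 6.24 in atg5 and by 7.16 in col, and its centred profile differed from that of ALDH6B2 by a root mean square of 1.94. Of the 5 named for ALDH7B4, AT4G36640 came closest in size, with rises of 2.82 in atg5 and 2.84 in col and a root mean square difference of 0.55.

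ALDH10A9 had few genes like it by Pearson's r, over a profile that varied little (group means 9.00 to 9.30). AT5G11770 was the nearest with r = 0.904, and it was the single gene above 0.9. AT4G38500 followed with r = 0.888, AT1G31380 with r = 0.837, AT5G13260 with r = 0.827 and AT1G49210 with r = 0.819. Centred profiles of these 5 differed from that of ALDH10A9 by a root mean square of 0.09, 0.12, 0.08, 0.22 and 0.61, in that order. AT5G11770 differed by -0.08 between 48 h and control in atg5 and by 0.28 in col, and by -0.45 in atg5 minus col at 48 h.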

How the data were processed

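Leaf RNA was measured on 12 single-channel Affymetrix arrays in 4 groups of 3. MAS5 and GCRMA are named, per the submitters' processing notes, without version or role. The deposited values are on a log2 scale, judged from the values; the authors' normalization and other steps are not given in the sources used here. Arrays give no counting depth, so their number limits precision. Of 22746 probe sets without the 64 controls, 13513 pair with 1 gene; the brightest per gene left 13356 genes, with loci from RefSeq (TAIR10.1). Of these, 2666 (20.0%) lay within 0.05 of the lowest value on all arrays.

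Values were tested as deposited with limma 3.58.1 (R 4.3.3; lmFit, eBayes, 1 mean per group, two-sided, no block) and p-values adjusted by Benjamini-Hochberg across the 13356 genes; the fit was tested on simulated data. The replicate numbers did not pair the arrays: same-numbered arrays had a median r of deviations of 0.00 and 1 of 18 pairs above 0.1. Comparisons were each response to submergence, atg5 minus col in control and at 48 h, and the interaction. Alternatives were other scalings, filters, priors, weights, probe set rules, the block, fewer arrays and a 2-fold minimum. The members and lists were chosen with earlier results of these data known. Per list, up to 4 genes with the largest called submergence differences are named, with any called between genotypes, and the 5 most similar profiles per gene by Pearson's r.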

Additional observations from a re-analysis of the deposited data

How the results depend on the processing

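The rises of ALDH6B2 and ALDH7B4 kept their direction and their side of the threshold under all 24 alternatives, from 2.67 to 3.01 for ALDH6B2 in atg5, 2.92 to 3.22 in col, 3.69 to 4.07 for ALDH7B4 in atg5 and 3.86 to 4.17 in col. The replicate block, for numbers that do not pair the arrays, left these at 2.75, 3.03, 3.81 and 3.98. Differences near 0 turned sign when 1 array was left out: in atg5 minus col in control ALDH6B2 ranged from -0.0447 to 0.22 (-0.008 without atg5 control replicate 1, -0.0447 without col control replicate 1), ALDH7B4 from -0.0356 to 0.23 (-0.0356 without atg5 control replicate 1, -0.0258 without col control replicate 3) and ALDH10A9 from -0.0695 to 0.0753 (0.0753 without atg5 control replicate 2, 0.0263 without col control replicate 3), with 0.0001 under array weights. At 48 h ALDH7B4 ranged from -0.22 to 0.0178 (0.0178 without col 48 h replicate 3). For ALDH10A9 in atg5 the submergence difference ranged from -0.14 to 0.0047 (0.0047 without atg5 control replicate 3) and was 0.20 with median centring. In col it ranged from 0.21 to 0.26 over arrays left out, and its call ended with array weights (0.22), quantile normalization (0.13), without dim genes (0.23, fewer genes tested) and with a 2-fold minimum (0.23). The ALDH10A9 difference of atg5 minus col at 48 h ranged from -0.32 to -0.28 over arrays left out. Its call ended with array weights (-0.30), median centring (-0.28), the 6 arrays of the comparison alone (-0.30), the replicate block (-0.30), a robust prior (-0.30, adjusted p = 0.0502), without dim genes (-0.30) and with a 2-fold minimum (-0.30). Its interaction ranged from -0.37 to -0.23. The cause of these changes was not tested.

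Numbers of genes called also moved. All probe sets, a larger table, gave 10414 for submergence in atg5, 10914 in col, 689 for atg5 minus col in control, 948 at 48 h and 157 for the interaction. Median centring gave 10318 (7809 higher and 2509 lower, against 2554 and 2829 as reported) in atg5, 9195 (6519 higher and 2676 lower, against 2728 and 2950) in col and 151 for the interaction, and it moved the median of all genes by 0.26 in atg5 and 0.19 in col. It also changed the split between genotypes in control to 166 higher and 209 lower, against 183 and 130, and that of the interaction to 101 and 50, against 45 and 35. In atg5 minus col in control, 313 as reported, the count was 13 with the arrays of the comparison alone, 159 with the replicate block, 108 with a 2-fold minimum and 124 to 344 over arrays left out. At 48 h, 457 as reported, it was 13, 229, 132 and 179 to 751 under the same changes, and 695 without dim genes. For the interaction, 80 as reported, it was 34 with the replicate block, 44 with a 2-fold minimum, 156 without dim genes and 51 to 186 over arrays left out. Over arrays left out, the lowest count in control came without atg5 control replicate 1, the lowest at 48 h without atg5 48 h replicate 3 and for the interaction without atg5 48 h replicate 1. The highest at 48 h and for the interaction came without col 48 h replicate 3.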

Other observations

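AOR was the only gene of the 5 lists called between genotypes, at 48 h, where 3.42% of all genes were called (1.84% higher). The lists held 5, 11, 2, 7 and 4 measured genes, so 1 call is near that share. The log2 signal of AOR under water was 7.39 to 7.56 in atg5, against 4.93 to 6.10 in col. The difference was 1.82 ± 0.27 (limma, adjusted p = 0.0144). In control the difference was -0.02 ± 0.27 (adjusted p = 1.0), and the interaction was 1.84 ± 0.38 (adjusted p = 0.0847), which did not pass. The call at 48 h ended under 2 of 23 alternatives, the 6 arrays of the comparison alone (adjusted p = 0.176) and without atg5 48 h replicate 3 (adjusted p = 0.0508), and the lowest value was 0.00148. D2HGDH (AT4G36400), a 2-hydroxyglutarate dehydrogenase tied to lysine and branched-chain amino acid breakdown, was named after its values were seen. It was higher in atg5 by 0.36 ± 0.10 both at 48 h (adjusted p = 0.109) and in control (adjusted p = 0.137), and neither passed.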
